A study of Mus musculus with 2 samples.

Results

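Foxo1, Foxo3 and Foxo4 are the genes of the forkhead box O (FoxO) transcription factors that this account follows; a further family gene, Foxo6, is given beside them. The members are the 3 genes by name, out of 34740 gene names on the array, and they are read by 7 non-control probes: 2 for Foxo1, 2 for Foxo3 and 3 for Foxo4. The data come from 2 one-colour arrays. One held skeletal muscle RNA of the C26 model of cancer cachexia, in which 1000000 C26 carcinoma cells in 100 µL of PBS were placed under the skin of the flank; the other held muscle RNA of control mice given PBS. Both groups were male CD2F1/Slc mice aged 11 weeks. The sources used here do not name the muscle, the time since the cells were implanted, the number of mice behind an array or any pooling of RNA.

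FoxO proteins bind DNA through a forkhead domain and switch on genes of protein breakdown, autophagy, stress defence and growth arrest. Insulin and IGF1, acting through PI3K and AKT, cause FoxO proteins to be phosphorylated, bound by 14-3-3 proteins and kept out of the nucleus, so that their activity is set by phosphorylation as well as by the amount of their mRNA. In skeletal muscle Foxo1 and Foxo3 are known as drivers of atrophy that turn on the ubiquitin ligases atrogin-1 and MuRF1, and glucocorticoids and fasting are known to raise their mRNA.

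With an array per group there is no replicate and no test. Each value describes these arrays, and the error beside a log2 ratio (C26 minus control) comes from the errors that the scanner software gave for the spot signals. The processed signal is a background-subtracted intensity, and ratios were taken after each array was scaled to the 75th percentile of its probes, a signal of 249.5 on the C26 array and 262 on the control array. Of the non-control spots, 53.8% on the C26 array and 50.4% on the control array were well above background, and no spot was saturated. Muscle fibre markers fitted the tissue label, as all 12 were measured on both arrays, with log2 ratios from -0.32 to 0.36.

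Of the 7 FoxO probes, 4 passed the background flag (signal well above background) on both arrays, 2 passed it in C26 alone and 1 on neither array. The 2 Foxo1 probes were about 3-fold higher in C26, both Foxo3 probes were higher in C26 but dim, and the 2 Foxo4 probes above background differed by little more than their error. A gene counted as measured where its brightest probe passed that flag on each array, which held for 2 of the 3 members, Foxo1 and Foxo4, and for 19668 genes in all. Among those 19668 genes, 1.25% were higher in C26 by 2-fold or more, and 1.15% were lower by as much. Foxo1 was among the higher ones, and Foxo4 was in neither group.

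**Figure D1:**
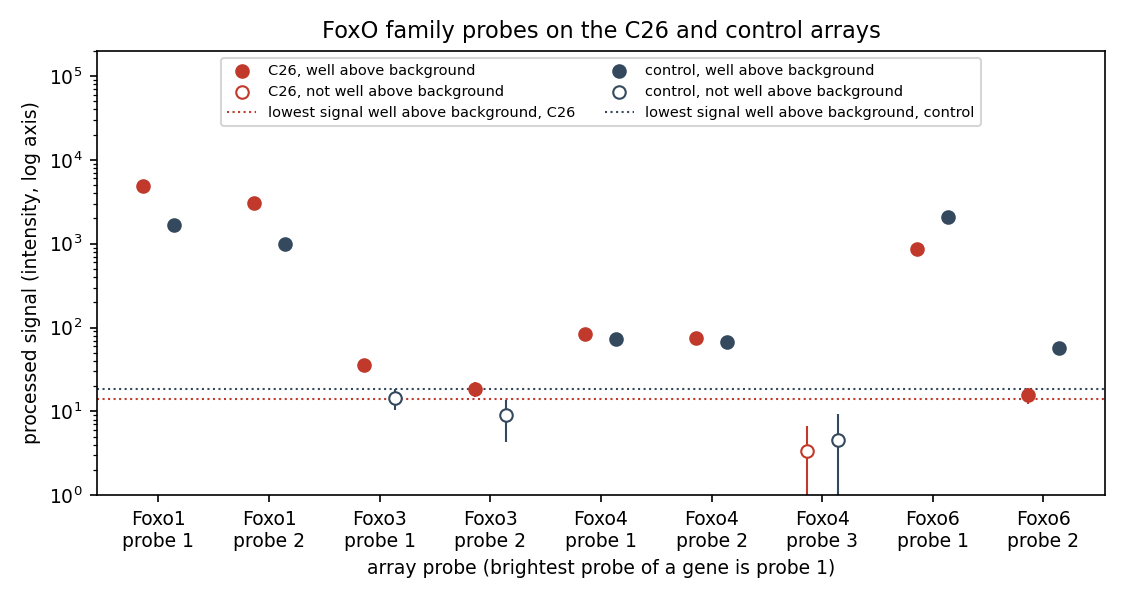
Processed signal (intensity, log axis) of each FoxO family probe on the C26 array (red) and the control array (dark blue), with the scanner software's error as bars, which run to the bottom of the axis for Foxo4 probe 3. Filled points are well above background, open points are not, and dotted lines mark the lowest signal well above background on each array, 14.1 on C26 and 18.5 on control; both Foxo1 probes are higher in C26, both Foxo6 probes are lower in C26, and the Foxo3 probes are open on the control array.

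Foxo1, the FoxO gene tied to fasting and to the switch of fuel use in muscle, gave the clearest values. Its brighter probe lies at chr3:52150183-52150242 (mm9, plus strand) and is shown because the main value rests on it; in its sense direction 2 of its 3 reading frames hold no stop codon.
Foxo1 probe 1: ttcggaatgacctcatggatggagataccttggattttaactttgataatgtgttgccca
This probe had a processed signal of 4885 (error 489) on the C26 array, against 1652 (error 165) on the control array. That is a log2 ratio of 1.64 (error 0.20), or 3.11-fold higher in C26. The second probe, at chr3:52153289-52153348 on the same strand, had 3101 on the C26 array, against 1004 on the control array, a log2 ratio of 1.70 (error 0.20) and 3.25-fold. The probes stand 3106 bases apart and share no base, and their ratios differed by -0.06 (error 0.29), well inside the error.

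The size of the Foxo1 value can be set against the rest of the array. Only 60 of the 19668 measured genes, 0.305%, had a higher log2 ratio than Foxo1. Between copies of a probe printed at least 8 times, the median standard deviation of the log2 ratio was 0.07 over 263 probes, so spot noise within these arrays was far smaller than 1.64; the spread between animals is unknown. Across 8 ways of scaling and background correction the ratio of probe 1 lay between 1.56 and 1.65 and that of probe 2 between 1.60 and 1.70.

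Foxo3, the FoxO gene best known for turning on atrogin-1 and autophagy genes in muscle, was near the limit of detection. Its brighter probe, at chr10:41967288-41967347 (mm9, minus strand), is listed under a full-length cDNA clone and not under the RefSeq mRNA. It had a processed signal of 36.1 (error 4.57) on the C26 array, against 14.4 (error 3.97) on the control array, where it was not well above background. The other probe, listed under the RefSeq mRNA at chr10:41905610-41905669, had 18.5 (error 3.70) on the C26 array, against 9.0 (error 4.68) on the control array, again not well above background. Both probes were thus higher in C26, at positions 61678 bases apart, but the scanner software did not find the spot of the second one on the C26 array. Exons were not looked up, so whether the brighter probe reads the Foxo3 mRNA was not tested.

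Under the scanner software's background correction a fold for Foxo3 is a bound, since the control signal was below the level at which spots count as well above background. Set against the lowest such control signal, 18.5, the brighter probe was at least 2.05-fold higher in C26 and the other at least 1.05-fold. Such bounds take the C26 signal as read and leave out its error, so the true folds could be lower. Of 1443 genes read in this way as higher in C26, 7.07% had a bound of 2-fold or more. The measured log2 ratios were 1.39 (error 0.44) and 1.12 (error 0.81). Of 308 negative-control spots, none on the C26 array reached either Foxo3 signal, while 4 on the control array reached that of the brighter probe and 5 that of the other. The raw mean spot signals were 118 on the C26 array, against 95.1 on the control array, for the brighter probe, over local backgrounds of 66.0 in C26 and 67.0 in control. With plain subtraction of the local background its log2 ratio was 0.93, and with normexp correction, which adds an offset of 50, it was 0.42. Both are smaller than 2-fold, so the bound of 2.05-fold holds only for the software's correction, and there only with the main scaling. With median scaling the log2 ratio of that probe was 1.35, and with the percentile over probes above background it was 1.33. A bound so near 2-fold moves with such shifts. Foxo3 was higher in C26 under each of these.

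Foxo4, an X-linked FoxO gene that is also expressed in muscle, was nearly the same on both arrays. Probe 1, at chrX:98454966-98455025 (mm9, plus strand), had a processed signal of 83.5 (error 8.94) on the C26 array, against 72.2 (error 8.46) on the control array. Probe 2, at chrX:98454974-98455033, had 75.9 (error 8.12) on the C26 array, against 66.7 (error 7.69) on the control array. Their log2 ratios were 0.28 and 0.26, each with an error of 0.23, but the probes overlap by 52 of their 60 bases and so are close to a repeat of 1 measurement. The scanner software did not find the spot of probe 2 on either array and read it at its nominal place.

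The third Foxo4 probe, listed under an Ensembl transcript at chrX:98451524-98451583, was below background on both arrays. A surrogate stood in for its signal, 3.33 on the C26 array and 4.63 on the control array, and 75 of 308 negative-control spots in C26 and 76 in control were as high or higher, so it carries no ratio. Among measured genes, 18.7% had a higher log2 ratio than Foxo4.

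**Figure D2:**
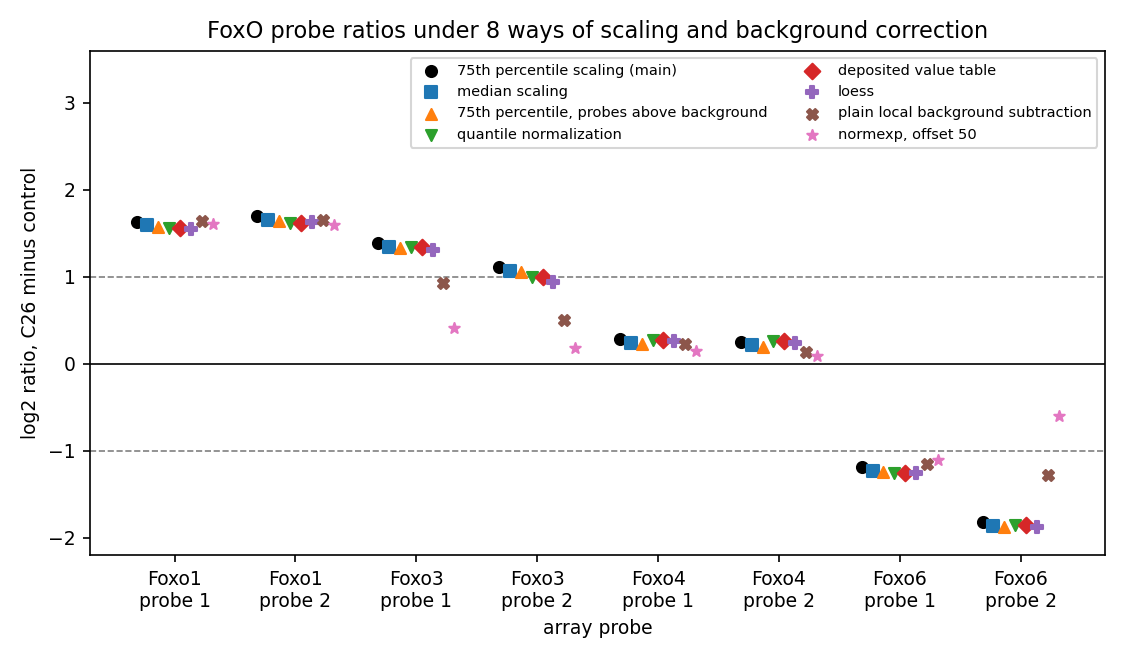
Log2 ratio (C26 minus control) of each FoxO family probe under 8 ways of scaling and background correction, without Foxo4 probe 3; dashed lines mark 2-fold. The markers of Foxo1 lie between 1.56 and 1.70 over both probes, while those of Foxo3 spread from 1.39 down to 0.42 for probe 1 and from 1.12 to 0.19 for probe 2.

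The members differed from each other in their ratios. The log2 ratio of Foxo1 exceeded that of Foxo4 by 1.35 (error 0.31). Foxo3 was not measured on the control array, so its distance from Foxo1 and Foxo4 is not settled: the log2 ratio of its brighter probe was 1.39 as processed by the scanner software, and with normexp correction it was 0.42, beside 1.61 for Foxo1 and 0.15 for Foxo4. Foxo6, the family member best known from the brain, ran the other way: its brighter probe had 875 on the C26 array, against 2095 on the control array, a log2 ratio of -1.19 (error 0.20). Its second probe had 15.6 on the C26 array, against 57.6 on the control array, a log2 ratio of -1.81 (error 0.36), or -0.60 with normexp correction. Foxo1 stood 2.82 (error 0.29) above Foxo6 on the log2 scale, so within this gene family the arrays hold ratios past 2-fold in both directions.

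**Figure D3:**
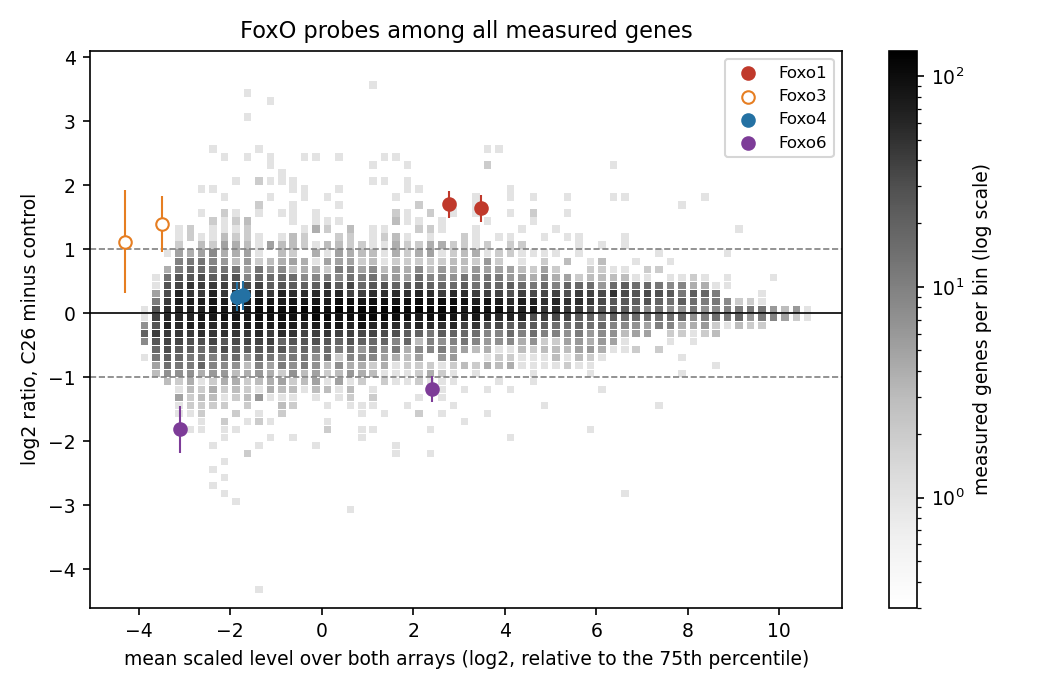
Log2 ratio (C26 minus control) against the mean scaled log2 level over both arrays for all 19668 measured genes (grey squares, darker for more genes) and the FoxO family probes (coloured, with the scanner software's error). Open points passed the background flag in C26 only; the Foxo1 probes lie above the bulk of genes of their level, Foxo4 lies within it, and the Foxo6 probes lie below it.

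Other forkhead genes gave a comparison within the wider family. Of 41 on the array besides the members, 22 were measured, 11 with a ratio above 0 and 11 below. None was at least 2-fold higher in C26 and 1, Foxo6, was at least 2-fold lower, beside 1.25% higher and 1.15% lower over all measured genes. After Foxo6 the lowest were Foxh1 at -0.53 (error 0.40), Foxj2 at -0.41 (error 0.37) and Foxd3 at -0.39 (error 0.23). The highest were Foxc2 at 0.60 (error 0.37), Foxk1, which competes with FoxO at autophagy genes, at 0.38 (error 0.20), Foxi1 at 0.36 and Foxp4 at 0.33. Foxl1, on 1 spot per array, failed the flag in C26 with a signal of 3.09, against 75.5 in control muscle, and was at least 5.09-fold lower in C26; of 356 genes read in this way as lower, 45.2% had a bound of 2-fold or more. Foxp3, the factor of regulatory T cells, passed the flag in C26 only, with 17.6 there, against 8.27 in control muscle, below the flag. Its bound was 1.00-fold, so no difference between the arrays is settled for it. The median of 0.0064 lay beside 0.04 for all measured genes, and both are so near 0 that their signs move with the scaling.

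With 2 arrays, likeness to a member can only mean a like level and a like ratio. The 5 measured genes nearest to Foxo1 in that plane were Lrg1, a secreted glycoprotein of the acute phase, at 1.59, Ctla2a at 1.77, Tnfrsf12a, the TWEAK receptor, at 1.32, Fibin at 1.13 and Klf10, a TGF-beta-induced factor, at 1.22, at distances from 0.05 to 0.52. Those nearest to Foxo4 were Bbs2, Ubxn7, Itga3, Ccdc125 and Olfr1372-ps1, with log2 ratios from 0.28 to 0.30.

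Genes listed as FoxO targets were mostly higher in C26. Of 86 on the array, 81 were measured; 72 of these had a ratio above 0, or 88.9%, beside 56.5% of all measured genes. At least 2-fold higher in C26 were 12, or 14.8%, beside the 1.25% given above, and none was at least 2-fold lower. Their median log2 ratio was 0.30, against 0.04 for all measured genes. The list was assembled from several tissues and with earlier results of these data known, so its direction is a description. Of the 12, Ddit4, Angptl4 and Mt2 also stand in the list of glucocorticoid-induced genes, and 9 of 78 remained past 2-fold without that overlap. That list holds 20 chosen genes and is not a full one. Trim63 and Mt1, outside it, held the glucocorticoid response element searched for below. Whether the 9 respond to glucocorticoids was not tested.

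**Figure D4:**
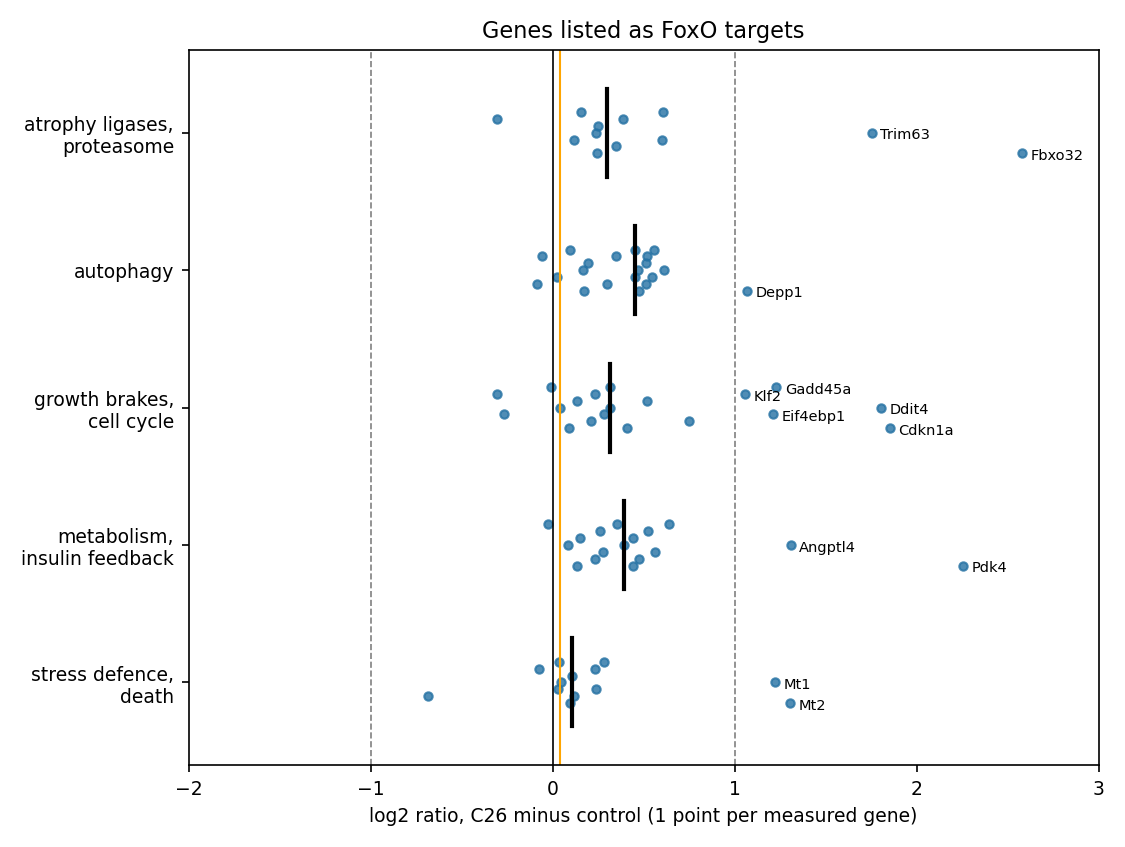
Log2 ratio (C26 minus control) of each measured gene listed as a FoxO target, in 5 groups, 1 point per gene. Thick bars are group medians, the orange line is the median of all measured genes (0.04) and dashed lines mark 2-fold; 12 genes lie past the line for 2-fold higher and none past the line for 2-fold lower.

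Among the 12 atrophy ligases and proteasome genes, 2 were past 2-fold higher (16.7%, beside 1.25% of all measured genes). Fbxo32 (atrogin-1) had 8420 on the C26 array, against 1484 on the control array, and Trim63 (MuRF1) 35778 on the C26 array, against 11154 on the control array, log2 ratios of 2.58 (error 0.06) and 1.75 (error 0.20). Psmd11, a proteasome lid subunit, stood at 0.61 and Fbxo21 (SMART), a FoxO-dependent ligase, at 0.60. Fbxo30 (MUSA1), another ligase placed under FoxO control in mouse muscle, was the 1 member below 0, at -0.31 (error 0.21), and Mul1, a mitochondrial ligase, had 0.12.

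Autophagy targets had the highest median of the 5 groups, 0.45 over 20 genes. Above 0 were 18 (90.0%, beside 56.5% of all measured genes), but 1 was past 2-fold (5.0%, beside 1.25%). Depp1, a FoxO-induced regulator of autophagy, had 1081 on the C26 array, against 542 on the control array, a log2 ratio of 1.07. Sqstm1, the cargo receptor p62, stood at 0.61, Pik3c3, the lipid kinase of autophagosome formation, at 0.56 and Tfeb, a regulator of lysosomal genes, at 0.54. The LC3 family genes Gabarapl1 and Map1lc3b had 0.52 and 0.48, and Bnip3 and Bnip3l, receptors of mitophagy, 0.45 and 0.47. At the low end were Ulk2 at 0.09, Ctsl at 0.02, Atg12 at -0.06 and Atg5 at -0.08.

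Brakes on growth and the cell cycle held 5 of the genes past 2-fold among 19 measured (26.3%, beside 1.25% of all measured genes). Cdkn1a, the cell cycle inhibitor p21, had 1482 on the C26 array, against 431 on the control array (log2 ratio 1.85, error 0.06), and Ddit4, an inhibitor of mTORC1, 12014 on the C26 array, against 3612 on the control array (1.81, error 0.20). Gadd45a stood at 1.23, Eif4ebp1, a repressor of cap-dependent translation, at 1.21 and Klf2 at 1.06. Sesn1, a stress-induced sestrin, had 0.75, while its relative Sesn3, a FoxO target in mouse cells, had 0.04. The lowest were Cited2 at -0.30 and Bcl6, a transcriptional repressor, at -0.27, followed by Trib3 at -0.01.

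Targets in fuel use and insulin feedback had a median of 0.39 over 17 genes. Above 0 were 16 (94.1%, beside 56.5% of all measured genes), and 2 were past 2-fold higher (11.8%, beside 1.25%). Pdk4, which restrains pyruvate oxidation, had 42424 on the C26 array, against 9346 on the control array, a log2 ratio of 2.26 (error 0.20), and Angptl4, an inhibitor of lipoprotein lipase, 1989 on the C26 array, against 844 on the control array, a ratio of 1.31. Cd36 and Lpl, of fatty acid uptake, had 0.64 and 0.56. Irs2 and Insr, the adaptor and the receptor through which FoxO factors feed back on insulin signalling, had 0.47 and 0.28. The other Insr probes had 0.52 and 0.66. The lowest were Pck1 at -0.03, Scp2 at 0.08, Nampt at 0.14 and Adipor1 at 0.15.

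Stress defence and cell death targets stood nearest to the rest of the array by their median, 0.11 over 13 genes. Even so, 2 of them were past 2-fold higher (15.4%, beside 1.25% of all measured genes). The metallothioneins Mt2 and Mt1, which bind zinc, had 1.31 and 1.22, each with an error of 0.20. Sod2 and Cat, classical FoxO targets that detoxify superoxide and peroxide, had -0.08 and 0.11, and Tnfsf10 (TRAIL) had the lowest value, -0.68 (error 0.21). Bcl2l11 (BIM) passed the background flag in C26 only and was at least 1.08-fold higher there. Among 26 listed targets with several measured probes, 5 had a probe of the other sign, and none of these was past 2-fold.

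The genes that act on FoxO proteins stood near the background of the array. Of 58 measured, 1 stood past 2-fold in each direction, or 1.72%, beside 1.25% higher and 1.15% lower over all measured genes, and the median log2 ratio was 0.06. In the kinase route from insulin and IGF1, Pik3r1, the regulatory subunit of PI3K and a glucocorticoid-induced gene, had 558 on the C26 array, against 242 on the control array, a log2 ratio of 1.28 (error 0.21). The kinases that phosphorylate FoxO proteins had 0.36 for Akt1, 0.35 for Sgk1 and 0.31 for Akt2. The lowest were Trib1 at -0.35, Inpp5d at -0.29, Inppl1 at -0.27 and Pik3cb at -0.18.

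The 14-3-3 genes, whose proteins hold phosphorylated FoxO in the cytoplasm, had ratios from -0.05 to 0.19 except Sfn, an epithelial member, which was dim at 37.9 on the C26 array, against 115 on the control array, a log2 ratio of -1.53 (error 0.24). Of 32 enzymes that acetylate, deacetylate, ubiquitinate or methylate FoxO proteins, or phosphorylate them under stress, none was past 2-fold, a count near the background given above. Hdac4, a class IIa deacetylase that is raised by denervation, came nearest at 0.95 (error 0.20), followed by Hdac5 at 0.43, and the mitochondrial deacetylase Sirt3 was lowest at -0.44. The acetyltransferases Ep300 and Crebbp had 0.34 and -0.06, and Sirt1 0.24.

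**Figure D5:**
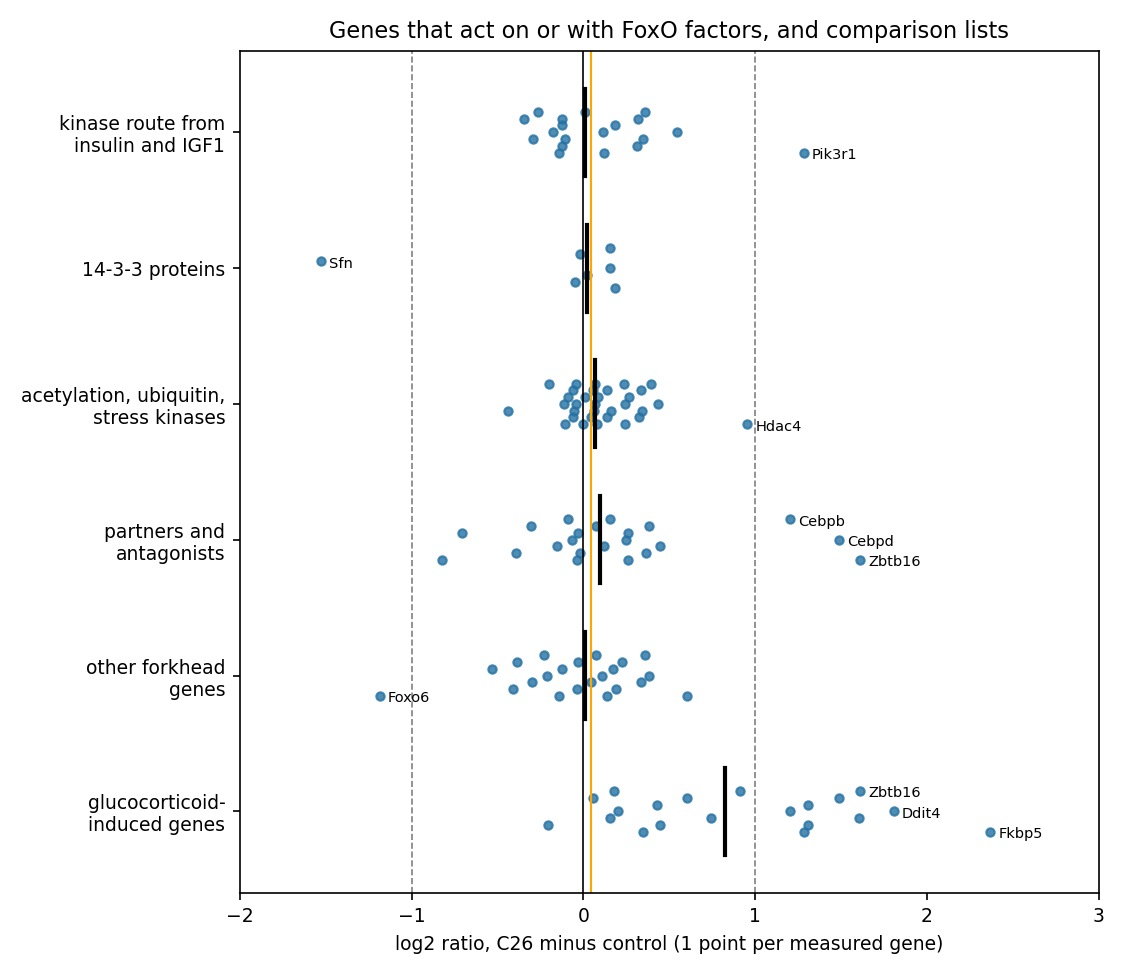
Log2 ratio (C26 minus control) of each measured gene that acts on or with FoxO factors, of other forkhead genes and of glucocorticoid-induced genes, 1 point per gene. Thick bars are group medians, the orange line is the median of all measured genes (0.04) and dashed lines mark 2-fold; the median of the glucocorticoid list is 0.83 and those of the other lists lie between 0.0064 and 0.10.

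Among 22 measured partners and antagonists of FoxO at shared genes, 3 were at least 2-fold higher in C26 (13.6%, beside 1.25% of all measured genes) and none 2-fold lower (beside 1.15%). They were Zbtb16 at 1.61, Cebpd at 1.49 and Cebpb at 1.20, all of which also stand in the glucocorticoid list; Cebpb had 11159 on the C26 array, against 5099 on the control array. Klf15, which acts with FoxO1 in glucocorticoid-driven atrophy, had 0.45 and Smad3 0.12. Nr3c1, the glucocorticoid receptor, had 0.15 by its brightest probe and 0.60 by its other one. The coactivator gene Ppargc1a had 0.26, and its relative Ppargc1b had the lowest ratio, -0.82 (error 0.21), followed by Runx1 at -0.71 and Rxrg at -0.39. Of 20 measured glucocorticoid-induced genes 9 were at least 2-fold higher (45.0%, beside 1.25% of all measured genes), with a median of 0.83. The highest was Fkbp5, with 6575 on the C26 array, against 1338 on the control array. Arrdc2, an arrestin-domain gene of that list, had 7762 on the C26 array, against 2680 on the control array, a log2 ratio of 1.61. The lowest of the list were Tat at -0.21, Cdkn1c at 0.055, Nr3c1 as given above and Dusp1 at 0.18.

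Promoter windows from RefSeq (GRCm38.p6, 250 bases before to 50 after a start) were searched on both strands for the forkhead motif TGTTTAC and for a glucocorticoid response element, the half-sites GNACA and TGTNC with any 3 bases between them. The forkhead motif was in 3.65% of all 32851 windows and in 9 of 86 windows, or 10.5%, of the 72 listed targets that the promoter table holds; the response element was in 0.475% of all windows and in 3 of the 86. Trim63 and Txnip held both, Txnip with a log2 ratio of 0.23. In Trim63 they were the forkhead motif from position -194 and the response element from -208 relative to its start, 1 base apart and not overlapping; it is shown because these lie side by side in the promoter of a target past 2-fold, a choice made after its values were seen. The stretch before its start lies at chr4:134314870-134315119 on the plus strand, with the matches in capitals.
Trim63 promoter: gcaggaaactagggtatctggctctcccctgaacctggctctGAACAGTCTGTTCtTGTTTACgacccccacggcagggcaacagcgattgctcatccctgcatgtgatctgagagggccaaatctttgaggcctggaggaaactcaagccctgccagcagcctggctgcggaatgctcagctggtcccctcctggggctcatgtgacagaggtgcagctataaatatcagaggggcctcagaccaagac
The other target windows with the forkhead motif were those of Sesn1, Btg1, Mxi1, Adipor1, Txnip, Bcl2l11, Bbc3 and Selenop. None of the 6 measured genes among them was past 2-fold, Mxi1 was not measured, and Bcl2l11 carries the bound given above. Of the members, Foxo1 and Foxo3 were matched in the table, and their windows held neither set of letters; Foxo4 and Fbxo32 were not matched.

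Muscle is a mixture of cells, and in a bulk sample fewer cells of a type and less RNA per cell cannot be told apart. Endothelial markers, of cells that also express Foxo1, were all above 0 by their brightest probes (12 of 12), beside 56.5% of all measured genes. Their median was 0.40, and their summed scaled signal was 156 on the C26 array, against 115 on the control array. Cdh5 and Emcn stood at 0.04, and Kdr at 0.01 but at -0.63 by its other probe. Adipocyte markers, 9 of 12 above 0, had a median of 0.44 and summed to 552 on the C26 array, against 355 on the control array. The targets Lpl, at 0.56, and Pck1, at -0.03, are among them. Erythroid markers had a median of 1.52 over 6 measured, neutrophil markers 0.36 over 7, satellite cell markers -0.14 over 7, macrophage markers -0.23 over 11 and fibroblast markers -0.48 over 12. In C26 against control, their summed scaled signals were 2552 against 1324 (erythroid), 117 against 132 (neutrophil) and 53.1 against 43.8 (satellite cell). Those of macrophage markers were 46.9 against 58.8, and those of fibroblast markers 963 against 1178. Past 2-fold higher in C26 were Cldn5 (8.33% of endothelial markers measured) at 1.30, Plin4 (8.33%, adipocyte) at 1.14 and Myod1 (14.3%, satellite cell) at 1.42. S100a8, S100a9 and Lcn2 (42.9%, neutrophil) had 2.46, 2.35 and 1.32. Over all measured genes the share was 1.25%. Below 0 were 3 of 7 neutrophil markers, the lowest Csf3r at -0.26. So were 4 of 7 satellite cell markers, from Calcr at -0.78 to Vcam1 at -0.14. Of the erythroid markers, Slc4a1, Alas2, Hbb-b2 and Hba-a1 (66.7% of those measured) had 2.43, 2.31, 1.66 and 1.37. Ahsp (erythroid) and Retnlg (neutrophil), below the flag in control muscle, were at least 6.20-fold and 2.79-fold higher in C26. Past 2-fold lower were Col1a1 and Col3a1 (2 of 12 fibroblast markers) at -1.81 and -1.996, and Cd68 and Ms4a7 (2 of 11 macrophage markers) at -1.35 and -1.29. The share over all measured genes was 1.15%. The part of these cells in the Foxo1 and target values was not tested.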

How the data were processed

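Per the file headers, the software was Agilent Feature Extraction 10.7.1.1, while the submitters' processing notes list 9.5.1.1. Both arrays lay on 1 slide with 1 scan time. The values used from the deposited scanner files are linear intensities, 1 per spot; per the file headers the processed signal was background-subtracted with spatial detrending, and a surrogate replaced spots too low to measure. The deposited value table also holds intensity; 99.9% of it lay within 0.01 (log2) of quantile-normalized processed signals, and it served as an alternative.

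Outlier spots were left out (91 on the C26 array, 110 on the control array), the spots of each of 55680 probes averaged on the log2 scale, and each array's 75th percentile subtracted. The gene value is that of its brightest probe. Of the probes, 31381 matched the reference table (GRCm38.p6, for names alone); probe positions are mm9, as in the files, and exons were not looked up. A bound sets the brighter scaled value against the higher of the dim value and the lowest one well above background. It leaves out the error of the spot signals. The scaling and the 2-fold call were tested on simulated data, with changes set well past 2-fold. The background flag, bounds, gene lists and motif search were not part of that test.

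Members and the 11 gene lists and 8 marker lists were chosen with earlier results of these data known. Named are all FoxO probes, list members past 2-fold, and others from the 4 highest and 4 lowest of each pathway list, not all of them; members outside these (Sesn3, Sod2, Cat, Sirt1, Crebbp, Irs2, Insr, Smad3 and others given beside a named gene) were named for their role, after their values were seen. Alternatives were normexp correction, plain background subtraction, quantile, median and loess (span 0.3) normalization, a percentile over probes above background, the value table, the mean over probes, other filters and thresholds. Python 3.11.15, pandas 2.3.3, R 4.3.3 and limma 3.58.1 were used. Some genes of the lists are counted but not reported by name here.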

Additional observations from a re-analysis of the deposited data

How the results depend on the processing

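Foxo1 and Foxo4 kept their direction and moved by less than their error under every alternative run. Foxo3 had 0.42 with normexp correction and 0.93 with plain subtraction of the local background (chosen after seeing the data, like leaving out the glucocorticoid list), against 1.39; it had no value as a mean over measured probes, since none was measured. Listed targets past 2-fold higher were 12, and 10 to 13 under other scalings and filters, 5 at 3-fold, and 1 was lower at 1.5-fold; their median was 0.23 with loess. Genes acting on FoxO past the threshold were 2 higher at 1.5-fold, 0 higher and 0 lower at 3-fold, and 0 lower with normexp correction or the stricter filter; their median was -0.012 with loess. Other forkhead genes had 1 higher and 2 lower with no filter, 1 higher at 1.5-fold and 0 lower at 3-fold, and medians of -0.065 with quantile normalization, -0.038 with median scaling, -0.053 with the percentile over probes above background, -0.064 with the value table and with loess, and -0.14 with no filter, where the medians of all genes were, in that order, -0.0032, -0.0018, -0.017, -0.0028, -0.013 and -0.035. Of all measured genes, 245 were past 2-fold higher. That number was 131 under normexp correction, 1579 where dim probes stayed in, 129 under the stricter filter, 859 for a 1.5-fold threshold and 68 for a 3-fold one. The lower genes, 226, numbered 65, 1316, 63, 949 and 45 in the same order. The filters and thresholds move counts by construction, and normexp adds an offset; otherwise the cause was not tested. No paired analysis was possible because each group has 1 array. Signals near background, as for Foxo3, limit what can be measured.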
